A study of Homo sapiens with 8 samples.

Results

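The genes described here encode RNA-binding regulators of tissue-type splicing, and were followed in MOLM-13 cells with and without knockdown (KD) of PTBP1. They were MBNL1, MBNL2 and MBNL3 of the muscleblind family, CELF1 and CELF2 of the CELF family, RBFOX2, QKI, ELAVL1, TIA1 and TIAL1. The rule that takes them by name uses no measured value, but the members were chosen with earlier results of these data known. They are 10 of the 16474 genes with a count in at least 1 library. A transcript belonged to one of them when its Ensembl identifier, without the version, did so in GENCODE version 44, which gave 163 listed transcripts, 70 of them with a count.

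MOLM-13 cells are an established human line of acute myeloid leukemia (AML). They carried a lentiviral construct that always expresses mCherry and, after doxycycline (dox), expresses a truncated LNGFR receptor together with an shRNA. In 4 libraries the shRNA was directed against PTBP1 (shPTBP1, genotype label PTBP1 KD), and in 4 libraries it was scrambled (shSCR, genotype label WT). Both groups received dox for 9 days, so the vector, its marker proteins and the drug are shared by the controls. The study used 1 shRNA against PTBP1, so that its other effects cannot be told apart from those of the KD. The labels call the 4 libraries of a group biological replicates.

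These proteins bind short RNA motifs in and around exons and change which exons, ends or isoforms a transcript keeps, often in opposite directions in different tissues. MBNL proteins bind motifs with the letters GC flanked by pyrimidines and favour adult splicing patterns in muscle, whereas CELF proteins bind GU-rich RNA and oppose them on many exons. RBFOX2 recognises GCAUG, QKI recognises ACUAA, ELAVL1 binds AU-rich elements and stabilises mRNAs, and TIA1 and TIAL1 bind U-rich RNA downstream of weak splice donors. PTBP1, the gene targeted here, binds pyrimidine-rich RNA and mostly keeps exons out, and many of its target exons are shared with these regulators.

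RNA was read as nanopore cDNA, and the authors counted reads per annotated transcript. The libraries held between 1528449 and 1613342 counts, and log CPM (counts per 1000000) of any pair of libraries correlated across genes with r between 0.947 and 0.966. PTBP1 itself had 10, 15, 13 and 23 counts in the shPTBP1 libraries and 65, 90, 64 and 78 in the shSCR libraries, so that it was low where the labels say KD, with a log2 fold change (SE) of -2.26 (0.22) and an adjusted p of 7.18e-05 by edgeR. All 10 of a list of AML and myeloid markers were detected, with summed counts of 1358 to 1529 per shPTBP1 library and 1369 to 1466 per shSCR library. Of lists for other cell types, the 3 T cell markers CD3E, CD3D and CD2 were at 0, the erythroid, B cell and epithelial markers each summed to at most 2 counts per library, and the 3 fibroblast collagen genes COL1A1, COL1A2 and COL3A1 had 27 to 32 summed counts per shPTBP1 library and 20 to 29 per shSCR library. Of 4 neuronal markers SNAP25 alone had counts, 13 to 24 per shPTBP1 library and 4 to 19 per shSCR library, and SYT1, STMN2 and RBFOX3 were at 0. Fewer cells of a type and less RNA per cell cannot be told apart in such bulk RNA.

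Expression of the 10 regulators was compared first. Only 6 of them, MBNL1, CELF1, CELF2, QKI, TIA1 and TIAL1, had enough counts for the gene test, and none was called at an adjusted p under 0.05 by edgeR's quasi-likelihood test, where 5.54% of the 7597 genes tested were called, 2.36% as higher and 3.19% as lower in shPTBP1. Of the 6, 1 gene, TIA1, had an unadjusted p under 0.05, against 19.2% of all genes, and the same gene was the one whose groups did not overlap, against 12.7% of all genes. The median log2 fold change of the 6 was 0.29, with a range from -1.04 to 0.47, against -0.00 over all genes tested. DESeq2 and limma-voom also called none of the 6. A p that misses the threshold does not show that a gene kept its level, and the intervals given with each gene state what these data allow.

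**Figure D1:**
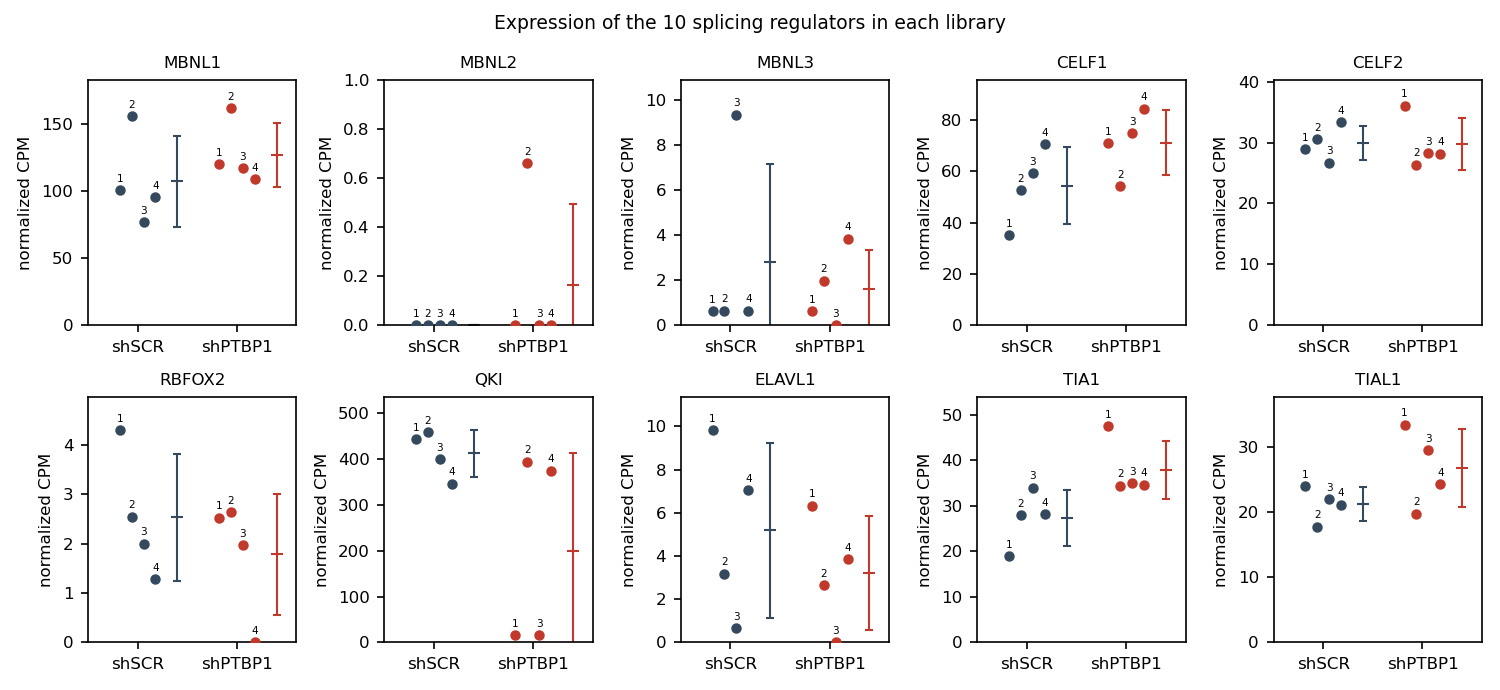
Normalized counts per 1000000 (CPM) of each regulator (vertical axes, 1 scale per gene) in the 4 shSCR and the 4 shPTBP1 libraries, with replicate numbers beside the points and the mean with its SD to their right. The groups overlap for every gene but TIA1, and QKI sits near 16 in shPTBP1 replicates 1 and 3 and between 346 and 458 in the other libraries.

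MBNL1 was the muscleblind gene of these cells. It had 189, 245, 177 and 171 counts in shPTBP1 replicates 1 to 4 and 164, 245, 115 and 149 in shSCR replicates 1 to 4. Replicate 2 was the highest library of both groups, and the groups overlapped. After normalization the level was 127 ± 23.7 CPM in shPTBP1 and 107 ± 34.1 CPM in shSCR (SD, n = 4 each), with a log2 fold change of 0.24 (SE 0.18, 95% interval -0.15 to 0.63, edgeR adjusted p = 0.527). It was 0.10 without shPTBP1 replicate 2, 0.11 without shSCR replicate 3 and 0.48 without shSCR replicate 2.

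The high replicates came from a single transcript. MBNL1-222, a 2-exon transcript with the biotype retained intron, had 61 counts in shPTBP1 replicate 2, 76 in shSCR replicate 2 and 0 in the other 6 libraries. Without transcripts of this kind, which are described below for all members, MBNL1 had 120, 123, 117 and 110 CPM in shPTBP1 and 102, 108, 77.2 and 96.4 CPM in shSCR. The groups then no longer overlapped, at 110 against 108 CPM for the nearest libraries. The log2 fold change became 0.29 (SE 0.10) at an adjusted p of 0.0719 by edgeR, still without a call. This removal was added after the data were seen, and 8.25% of 7359 genes were called under it. The share of all genes whose groups did not overlap was counted only with all transcripts, at 12.7%.

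MBNL2 and MBNL3, the other muscleblind genes, were close to absent. MBNL2 had 1 count in all 8 libraries together, in shPTBP1 replicate 2. A count of 0 allows up to 3 counts, which is 1.96 CPM in the smallest library. MBNL3 had 1, 3, 0 and 6 counts in shPTBP1 and 1, 1, 14 and 1 in shSCR, and 10 of the 14 counts of shSCR replicate 3 were on MBNL3-205, which had none elsewhere. The ratio of the summed counts was 0.596 (95% exact interval 0.244 to 1.38, counting error only), so that no difference was detectable at this depth.

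The proteins that MBNL1 makes differ by short cassette exons, and these were measured as the share of counts on transcripts that hold the exon among those that hold or skip it. The exon of 54 bases, at chr3:152446704-152446757 (hg38, plus strand), is known for directing MBNL1 to the nucleus and for being kept out by MBNL1 itself. The exon of 36 bases, at chr3:152455542-152455577, lies downstream of it. Both are coding and keep the reading frame. They are shown with the exon in capitals and 30 bases of each flanking intron in lower case, since their sequence and splice sites define the events counted here.
MBNL1 exon of 54 bases: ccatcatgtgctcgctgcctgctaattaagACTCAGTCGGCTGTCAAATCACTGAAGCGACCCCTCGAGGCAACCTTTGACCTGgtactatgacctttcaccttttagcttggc
MBNL1 exon of 36 bases: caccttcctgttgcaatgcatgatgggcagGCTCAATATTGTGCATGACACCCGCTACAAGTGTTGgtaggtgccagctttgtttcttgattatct

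The exon of 54 bases was mostly skipped in both groups. Its inclusion was 7.41, 8.89, 8.33 and 11.1% in shPTBP1 and 11.7, 11.1, 9.91 and 11.6% in shSCR, on 111 to 189 counts per library. Replicates 1, 2 and 3 of shPTBP1 were below all shSCR libraries and replicate 4 lay among them. The means of 8.94% ± 1.57 and 11.1% ± 0.817 (SD, n = 4 each) differed by -2.14 points without passing the test (diffSpliceDGE of edgeR, adjusted p = 0.67). The exon of 36 bases was mostly included, at 94.7, 96.7, 93.5 and 94.7% in shPTBP1 and 95.5, 97.5, 92.8 and 90.6% in shSCR. Its groups overlapped, with means of 94.9% and 94.1% (adjusted p = 0.918).

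Motif letters were counted on the transcribed strand in the 200 intron bases on either side of these exons. TCTT, a tetramer that PTBP1 binds, stood 4 times upstream and 3 times downstream of the MBNL1 exon of 36 bases, 1 time upstream of the exon of 54 bases and 0 times downstream of it. Of the 5124 cassette exons tested in all genes, 13.6% had at least 4 such letters upstream and 21% at least 3 downstream, and 80.5% and 73.9% had any. TGCATG, bound by RBFOX2, stood 1 time upstream of each of the 2 exons, as it did for 5.84% of all exons. ACTAAC, bound by QKI, stood 1 time downstream of the exon of 36 bases, as it did for 2.6% of all exons. These matches describe the letters of the windows and no binding was measured here.

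The MBNL1 isoforms tested, MBNL1-204 and MBNL1-202, overlapped between the groups. MBNL1-222 held more of the gene's counts than MBNL1-202, 9.42% against 7.49%, but only in replicate 2 of either group. In those libraries MBNL1-204 had its lowest shares, 64.1% in shPTBP1 and 55.9% in shSCR. MBNL1-204, which skips the exon of 54 bases, held 78.0% ± 9.59 of the gene's counts in shPTBP1 and 70.1% ± 9.66 in shSCR, and MBNL1-202, which includes it, held 6.91% ± 1.65 and 8.53% ± 1.17 (SD, n = 4 each). Neither was called, with an adjusted p of 1 for both. The first exon that took most MBNL1 counts, shared by MBNL1-204, MBNL1-202 and 5 other transcripts, at chr3:152268040-152269092, had 96.3, 73.1, 91.5 and 95.3% of the counts in shPTBP1 and 94.5, 66.9, 93.0 and 94.0% in shSCR, and the low library of each group was replicate 2, where MBNL1-222 was counted (adjusted p = 0.944).

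A short MBNL1 transcript was seen in the controls alone. MBNL1-210, which has 3 exons, no annotated coding sequence and its own last exon at chr3:152301919-152302449, had 5, 3, 2 and 3 counts in the shSCR libraries and 0 in each shPTBP1 library, where 0 of 782 MBNL1 counts allows a share of up to 0.384%. Its share in shSCR was 2.01% ± 0.768. The last exon had an unadjusted p of 0.00339 and an adjusted p of 0.18 (diffSpliceDGE), and its difference was under the 10 points that a call required. All 13 of its counts were in shSCR, so it passed the filter of at least 10 counts of each form through that group alone. Adjusted p values of such an exon therefore give no separate support for a difference. Its adjusted p was 0.0263 with a replicate block, 0.042 without shSCR replicate 2 and 0.0106 without transcripts at 0 in some libraries. It ran from 0.116 to 0.549 under the other alternatives that changed it. Without shSCR replicate 1 the exon was not tested. The exon was named after its values were seen.

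CELF1 and CELF2 were both expressed. CELF1, which binds GU-rich RNA and also promotes decay of mRNAs, had 112, 82, 114 and 132 counts in shPTBP1 and 57, 83, 89 and 110 in shSCR. Replicate 1 of shSCR was below all others and the remaining libraries of the groups overlapped. The log2 fold change was 0.39 (SE 0.18, 95% interval -0.01 to 0.79, edgeR adjusted p = 0.268), and it was 0.23 without shSCR replicate 1.

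That low library had no count on the main isoform. CELF1-201, the main transcript, had 86, 51, 78 and 82 counts in shPTBP1 and 0, 45, 64 and 65 in shSCR, and 0 of 57 CELF1 counts allows a share of up to 5.26%. In the same shSCR replicate 1, CELF1-214, the next most counted transcript, had 40 counts, within the 22 to 42 of the other shSCR libraries. Without CELF1-201 the gene's log2 fold change turned to -0.18 (SE 0.21) at an adjusted p of 0.689. The positive sign of CELF1 was therefore that of CELF1-201, which held 60.5% of the gene's counts, and it remained when shSCR replicate 1 was left out.

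The exon pair of 152 and 72 bases that CELF1-214 holds and CELF1-201 skips moved with this. Its inclusion was 21.1, 35.4, 25.7 and 29.3% in shPTBP1 and 100, 38.4, 25.6 and 40.4% in shSCR, with the value of 100% in replicate 1. The difference of -23.2 points was not called (adjusted p = 0.675). The last exon at chr11:47465933-47468891 that CELF1-201 uses had 79.5, 63.4, 71.1 and 62.1% of the counts in shPTBP1 and 8.77, 56.6, 74.2 and 60.0% in shSCR (adjusted p = 0.773), again with the low value in shSCR replicate 1.

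CELF2, the paralog known from T cells and neurons, had nearly equal group means. It had 57, 40, 43 and 44 counts in shPTBP1 and 47, 48, 40 and 52 in shSCR. The levels of 29.7 ± 4.3 and 29.9 ± 2.82 CPM (SD, n = 4 each) gave a log2 fold change of -0.01 with a 95% interval from -0.33 to 0.32 (edgeR adjusted p = 0.991).

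Within CELF2 the use of start sites was spread over 5 tested first exons. The first exon at chr10:11018776-11018864 (hg38, plus strand), used by CELF2-212, had 13, 11, 12 and 14 of the counts in shPTBP1 and 7, 9, 6 and 7 in shSCR, which is 22.8, 27.5, 27.9 and 31.8% against 14.9, 18.8, 15.0 and 13.5%. Every shPTBP1 library was above every shSCR library, with means of 27.5% ± 3.69 and 15.5% ± 2.26 (SD, n = 4 each). The unadjusted p was 0.00719 and the adjusted p 0.272 (diffSpliceDGE of edgeR), so it was not called. As an isoform, CELF2-212 had an adjusted p of 0.795. It was singled out after its values were seen.

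The other CELF2 first exons overlapped between the groups. The nearest tested first exon upstream of it, at chr10:11005321-11005440, had 24.9% ± 6.96 in shPTBP1 and 32.7% ± 2.55 in shSCR (adjusted p = 0.703). The CELF2 last exon at chr10:11328926-11336675 had 55.1% ± 7.19 and 46.4% ± 8.13 (adjusted p = 0.75), and the cassette exon of 144 bases 89.4% ± 2.45 and 91.5% ± 5.9 (adjusted p = 0.889). CELF2-209 and CELF2-215, its most counted isoforms, were not called either, with an adjusted p of 1 each.

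**Figure D2:**
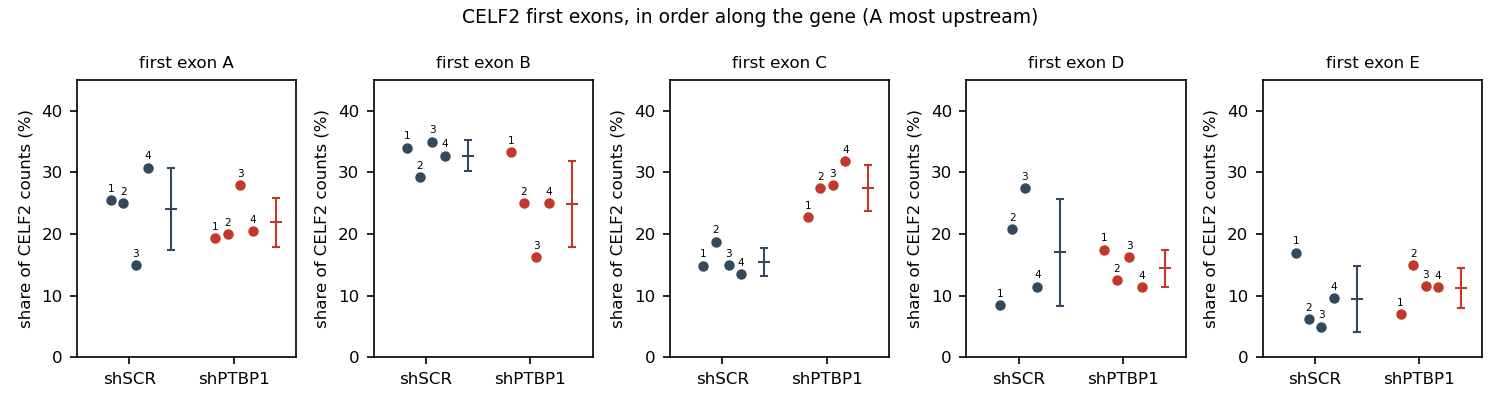
Share of CELF2 counts (percent, vertical axes) on each of the 5 first exons tested, in order along the gene, in the 4 shSCR and the 4 shPTBP1 libraries, with the mean and SD. The groups separate at first exon C alone, with 13.5 to 18.8% in shSCR and 22.8 to 31.8% in shPTBP1.

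QKI, which controls exon inclusion and circular RNA formation and has nuclear and cytoplasmic protein forms that differ at their C-terminal end, showed the widest spread of any member. It had 26, 597, 24 and 584 counts in shPTBP1 and 721, 719, 600 and 540 in shSCR. Replicates 1 and 3 of shPTBP1 were far below all other libraries, and replicates 2 and 4 lay within the range of the controls. The log2 fold change was -1.04 (SE 0.63, 95% interval -2.40 to 0.31, edgeR adjusted p = 0.402), and limma-voom gave -2.37 (adjusted p = 0.104).

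The spread of QKI was that of 1 transcript. QKI-204, annotated as a target of nonsense-mediated decay, took 93.5% of all QKI counts and had 0, 565, 0 and 558 counts in shPTBP1 and 681, 689, 565 and 506 in shSCR. Its annotated coding sequence has 957 bases, as does that of QKI-207, and it shares the splice site of its last exon with QKI-203. A count of 0 allows up to 11.5% and 12.5% of the QKI counts in the 2 shPTBP1 libraries without a count on it. The isoforms with the biotype protein coding did not follow QKI-204: QKI-203 had 13, 20, 16 and 15 counts in shPTBP1 and 21, 17, 16 and 18 in shSCR, and QKI-207 had 12, 9, 8 and 11 against 18, 12, 19 and 12. With QKI-204 left out, QKI had 16.6, 21.3, 15.9 and 16.8 CPM in shPTBP1 and 24.8, 19.2, 23.5 and 22 CPM in shSCR, and its log2 fold change shrank to -0.34 (SE 0.19) at an adjusted p of 0.311 by edgeR.

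QKI-203 and QKI-207 end in different last exons and have coding sequences of 1023 and 957 bases. Of their summed counts QKI-203 had 52, 69, 66.7 and 57.7% in shPTBP1 and 53.8, 58.6, 45.7 and 60% in shSCR. The groups overlapped, with means of 61.3% ± 7.9 and 54.5% ± 6.45 (SD, n = 4 each, exact two-sided permutation p = 0.257). As a share of all QKI counts, the last exon of QKI-207 at chr6:163565946-163570145 ranged from 1.51 to 46.2% in shPTBP1 and from 1.67 to 3.17% in shSCR (adjusted p = 0.977). Its high values were in the 2 libraries without a count on QKI-204.

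Transcripts listed at 0 in some libraries and well counted in others were therefore set apart for every gene. A transcript was taken as such when it was at 0 in at least 1 library and had a median of at least 10 counts in the libraries with a count. Among 10377 transcripts with such a median, 684 (6.59%) were at 0 in some library, and at a median of at least 300 counts 5 of 811 (0.617%) were, QKI-204 among them. Among the members they were QKI-204, CELF1-201, MBNL1-222, TIAL1-203, with 19 counts in shPTBP1 replicate 1 alone, and MBNL3-205. Whether these zeros are absent RNA or the assignment of reads to transcripts was not tested.

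**Figure D3:**
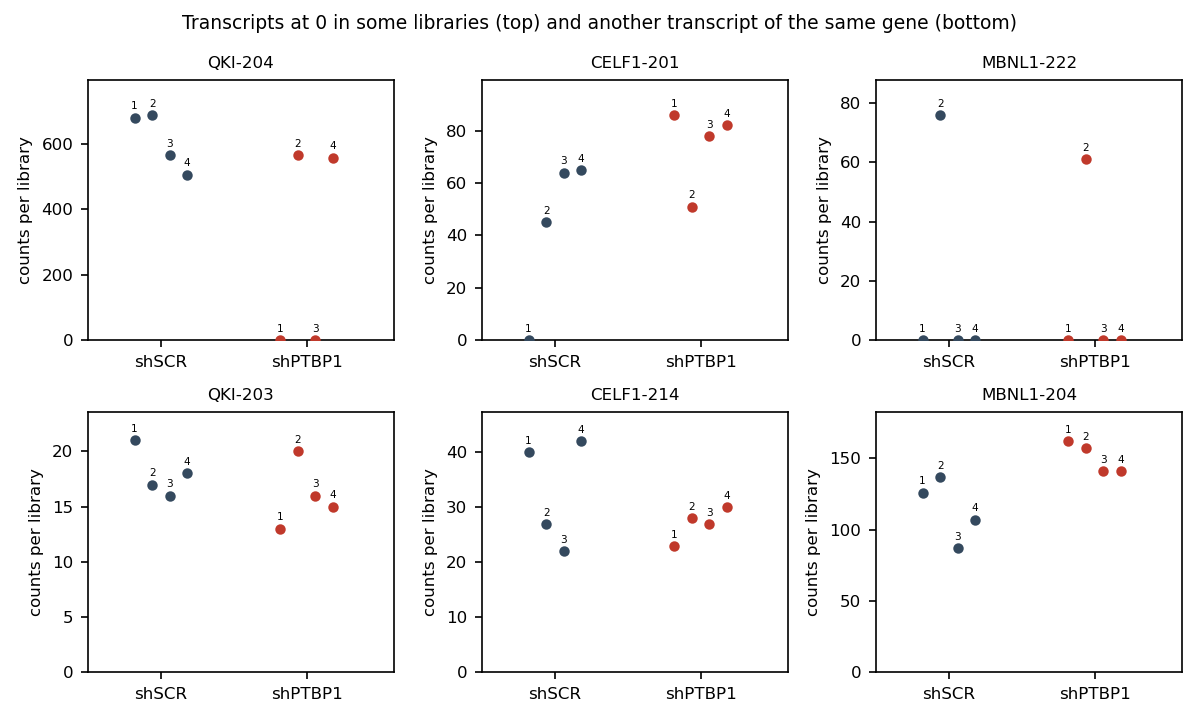
Counts per library (vertical axes) of 3 transcripts that are at 0 in some libraries (top) and of another transcript of the same gene (bottom), in the 4 shSCR and 4 shPTBP1 libraries. QKI-204 is at 0 in shPTBP1 replicates 1 and 3, CELF1-201 in shSCR replicate 1, and MBNL1-222 outside replicate 2 of both groups, whereas QKI-203, CELF1-214 and MBNL1-204 have counts in all 8 libraries.

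RBFOX2 and ELAVL1 were too low to pass the filter of the gene test on all libraries. RBFOX2, a splicing factor of muscle, neurons and epithelia, had 4, 4, 3 and 0 counts in shPTBP1 and 7, 4, 3 and 2 in shSCR, a ratio of 0.696 with a 95% exact interval from 0.292 to 1.6. ELAVL1, also known as HuR, had 10, 4, 0 and 6 counts in shPTBP1 and 16, 5, 1 and 11 in shSCR, a ratio of 0.614 with an interval from 0.334 to 1.1. Both groups overlapped for both genes, and the intervals cover counting error only. Fitted by edgeR with no filter, the log2 fold change was -0.49 for RBFOX2 (adjusted p = 0.778) and -0.68 for ELAVL1 (adjusted p = 0.623). ELAVL1 passed the filter in some fits with 1 library left out, at -1.04 to -0.28, and was not called.

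With all transcripts counted, TIA1 was the only member whose groups did not overlap. This U-rich RNA-binding protein, which helps the U1 particle find weak splice donors and gathers in stress granules, had 75, 52, 53 and 54 counts in shPTBP1 and 31, 44, 51 and 44 in shSCR. In CPM these were 47.5, 34.4, 34.9 and 34.6 against 19.0, 28.0, 34.0 and 28.2, so that the lowest shPTBP1 library lay just above the highest shSCR library. The log2 fold change was 0.47 (SE 0.18, 95% interval 0.08 to 0.86), with an unadjusted p of 0.0213 and an adjusted p of 0.167 by edgeR, and the exact two-sided permutation p was 0.0286, the smallest that 4 against 4 libraries can give. The log2 fold change fell to 0.35 without shPTBP1 replicate 1 and to 0.33 without shSCR replicate 1, the highest and the lowest library. Without transcripts at 0 in some libraries it was 0.48 (SE 0.17) at an adjusted p of 0.0918 by edgeR, against 0.0719 for MBNL1.

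TIAL1, the paralog of TIA1 with the same kind of binding, had 53, 30, 45 and 38 counts in shPTBP1 and 39, 28, 33 and 33 in shSCR. The groups overlapped, and the log2 fold change was 0.34 (SE 0.19, 95% interval -0.07 to 0.75, edgeR adjusted p = 0.368). Without TIAL1-203, which was counted in shPTBP1 replicate 1 only, it was 0.16 (SE 0.18, adjusted p = 0.681), and it was 0.21 without that whole library.

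**Figure D4:**
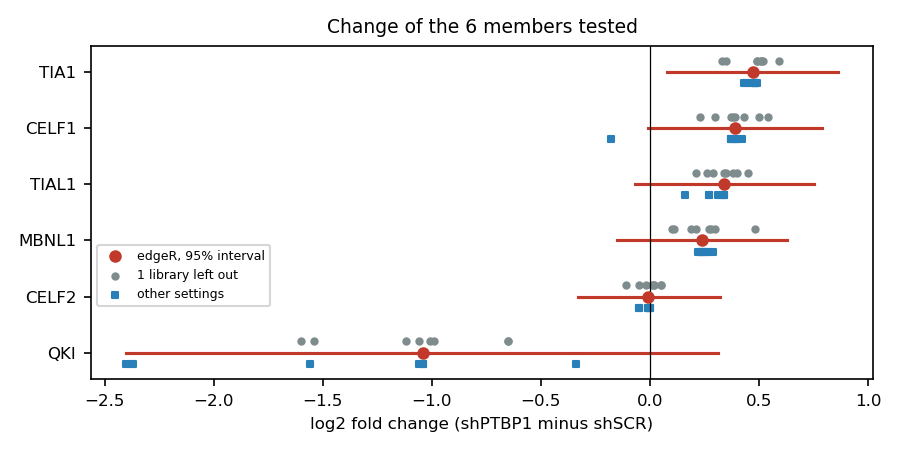
Log2 fold change of shPTBP1 over shSCR (horizontal axis) for the 6 regulators tested, with edgeR's 95% interval, the values with 1 library left out (grey) and those under the other settings (blue). The interval of TIA1 alone does not cross 0, CELF1 has 1 setting at -0.18, and the values of QKI run from -2.40 to -0.34.

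Each of these paralogs has 1 cassette exon that was tested. The TIA1 exon of 33 bases, at chr2:70229059-70229091 (hg38, minus strand), separates the known long and short TIA1 proteins and keeps the reading frame. The TIAL1 exon of 376 bases, at chr10:119580471-119580846 (minus strand), is part of TIAL1-213, a transcript annotated as a decay target. The TIA1 exon is shown in capitals with 30 intron bases on each side, and the TIAL1 exon from 30 bases of the upstream intron to its stop codon, which is in capitals and ends the 37 exon bases shown.
TIA1 exon of 33 bases: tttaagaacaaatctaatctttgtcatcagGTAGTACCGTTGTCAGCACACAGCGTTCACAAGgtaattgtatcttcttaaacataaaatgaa
TIAL1 exon up to its stop codon: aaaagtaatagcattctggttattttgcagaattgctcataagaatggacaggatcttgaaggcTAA

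Inclusion of the TIA1 exon was 92.0, 98.1, 88.7 and 98.1% in shPTBP1 and 93.5, 93.2, 98.0 and 95.5% in shSCR, with overlapping groups and an adjusted p of 0.907. Inclusion of the TIAL1 exon was 17.0, 23.3, 17.8 and 26.3% in shPTBP1 and 23.1, 14.3, 30.3 and 21.2% in shSCR. It overlapped as well, with means of 21.1% ± 4.48 and 22.2% ± 6.58 (SD, n = 4 each, adjusted p = 0.919). TCTT stood 2 times upstream and 3 times downstream of the TIA1 exon, and 3 times upstream and 1 time downstream of the TIAL1 exon. At least as many were found upstream of 52.9% and downstream of 21% of all cassette exons tested for TIA1, and of 28.1% and 73.9% for TIAL1. ACTAAC stood 1 time downstream of the TIA1 exon, as it did for 2.6% of all exons, and TGCATG 1 time downstream of the TIAL1 exon, as it did for 6.85%.

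TIA1 transcripts also differ at their 3′ end. TIA1-201 and TIA1-205 end 760 bases apart. TIA1-201 had 54, 46, 40 and 47 counts in shPTBP1 and 22, 29, 39 and 31 in shSCR, whereas TIA1-205 had 15, 5, 7 and 5 against 7, 11, 11 and 10. TIA1-205 therefore made up 21.7, 9.8, 14.9 and 9.62% of the pair in shPTBP1 and 24.1, 27.5, 22 and 24.4% in shSCR. The groups of this pair came close without overlapping, and the exact two-sided permutation p was 0.0286. Of all isoforms tested, 10.7% had groups that did not overlap, but that share is of the whole gene's counts and not of a chosen pair. TIA1-203, which ends at the same base as TIA1-205, was left out of the pair. It had 6, 1, 6 and 1 counts in shPTBP1 and 2, 3, 1 and 1 in shSCR. When it is added to TIA1-205 the groups overlap. The counts of TIA1-205 were under the limit for the isoform test, and the pair was chosen after its values were seen.

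Across all members the splicing tests made no call. Of 10 member isoforms tested none was called and 1, CELF2-212, had groups that did not overlap, where 1.12% of all 5464 isoforms were called and 10.7% did not overlap. Of 10 cassette exons in 5 member genes none was called, against 1.81% of all 5124, and 1 did not overlap, against 8.37%. The latter was the MBNL1 exon of 204 bases, at 99.3% in shPTBP1 and 98.6% in shSCR (adjusted p = 0.673). Of 21 first and last exons none was called, against 0.45% of all 10441, and 2 did not overlap, against 5.43%, namely the CELF2 first exon and the MBNL1-210 last exon. The MBNL1-210 last exon passed the filter through its shSCR counts alone. An unadjusted p under 0.05 was met by none of the isoforms, none of the cassette exons and the same 2 terminal exons, against 6.59%, 12.3% and 9.46% of all features. The share of counts on protein-coding transcripts was tested in MBNL1, QKI and TIAL1 and called in none, against 0.582% of 2749 genes, and in none of the 3 were the groups apart (5.24% of all) or the unadjusted p under 0.05 (9.79% of all).

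**Figure D5:**
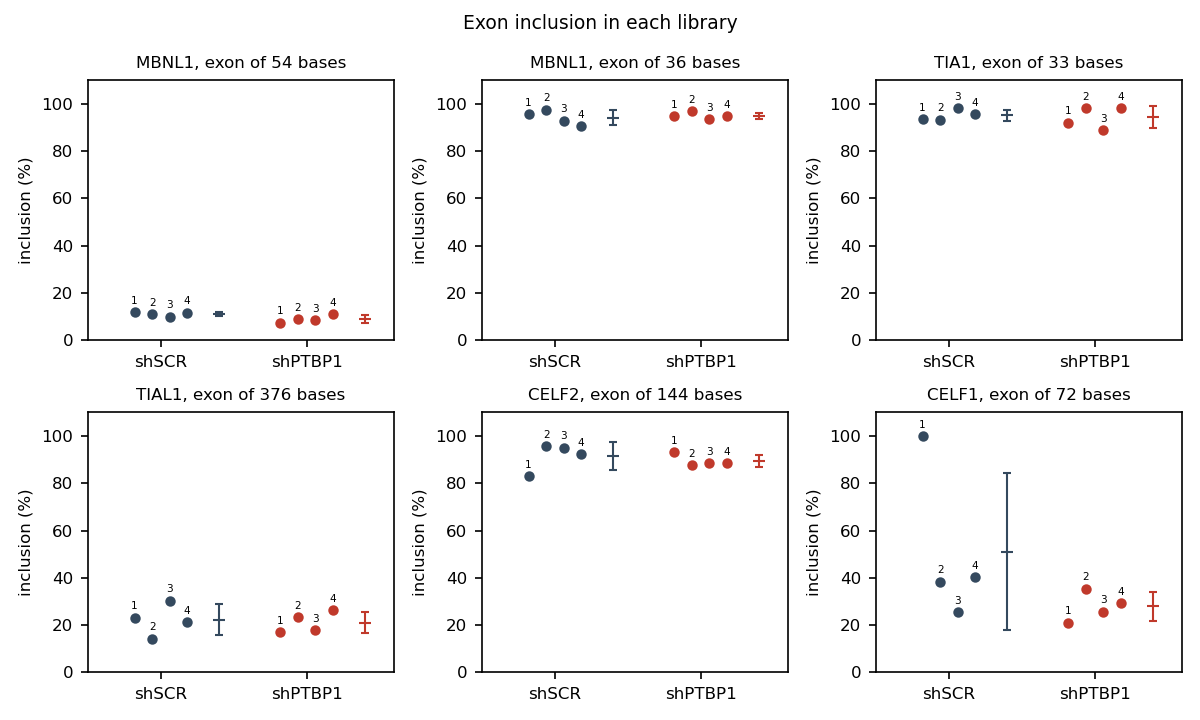
Inclusion (percent, vertical axes) of 6 cassette exons of the regulators in the 4 shSCR and 4 shPTBP1 libraries, with replicate numbers beside the points and the mean and SD. The groups overlap in all 6 exons shown, and the CELF1 exon of 72 bases stands at 100% in shSCR replicate 1.

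Other tissue-type splicing regulators were taken from a list of 35 genes, of which 19 had a count and 11 were tested. PTBP1 was lower, and PTBP2, its neuronal paralog, was higher, and no other gene of the list was called. PTBP2 had 194, 199, 190 and 185 counts in shPTBP1 and 1, 2, 2 and 4 in shSCR, which gave 6.36 (SE 0.19) as log2 fold change and 2.14e-10 as adjusted p by edgeR. The median over the 11 genes was -0.08. Several neuronal relatives of the members were not detected, with CELF3, CELF4, CELF5, CELF6, RBFOX1, RBFOX3 and ELAVL3 at 0 counts in all libraries. Of the other neuronal ELAVL genes, ELAVL2 had 1, 3, 2 and 2 counts in shPTBP1 and 0, 3, 1 and 0 in shSCR, and ELAVL4 had 1 count, in shPTBP1 replicate 3. Neither had enough counts for the test.

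Of a second list, genes known for exons that the members control, 14 are reported, and 9 cassette exons of 4 of them could be tested. None of the 9 was called, where 1.81% of all cassette exons were, and 1 had groups that did not overlap, against 8.37% of all.

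That exon lies in NUMB, the gene of a Notch inhibitor. The NUMB exon of 144 bases had 2.08, 7.69, 4.55 and 2.38% in shPTBP1 and 9.46, 8.16, 13.8 and 10.4% in shSCR. The shPTBP1 libraries all lay below the shSCR libraries, at an unadjusted p of 0.0254 and an adjusted p of 0.281 by diffSpliceDGE. The NUMB exon of 33 bases overlapped, with 45.1% ± 12.3 and 53.0% ± 5.62 (adjusted p = 0.638), and the ADD3 exon of 96 bases had 22.8% ± 7.02 and 24.2% ± 3.52 (adjusted p = 0.984). Better counted exons of MACROH2A1 overlapped too. Its exon of 91 bases had 20.7% in shPTBP1 and 22.6% in shSCR (diffSpliceDGE, adjusted p = 0.811). Its exon of 100 bases had 78.1% and 76.5% (adjusted p = 0.848). These exons were named after their values were seen. Of the 6 genes reported from this list that were tested for expression, 1 was called lower, against 3.19% of all genes tested. None was called higher, against 2.36%. The lower gene was the histone variant gene MACROH2A1, at -0.88 (SE 0.11) on the log2 scale with an adjusted p of 0.000653 by edgeR. A single call among 6 genes is not read as a result about the list.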

How the data were processed

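RNA from 4 shPTBP1 and 4 shSCR libraries of MOLM-13 cells was analysed, grouped by the sample labels. According to the labels and the study's methods, the authors prepared nanopore cDNA libraries, mapped the reads with minimap2 to hg38, kept those of high mapping quality, made transcript counts with StringTie and tested genes with DESeq2. The versions of minimap2, StringTie and DESeq2 and the annotation are not given in the sources used here. The deposited table holds counts of reads per transcript as whole numbers, not normalized. The second deposited table, in CPM, equals the count divided by the library total, to within 1e-06.

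Transcripts were matched to GENCODE version 44 on GRCh38 by identifier, which found 252562 of 254070, and counts were summed per gene. Genes were tested with edgeR 4.0.16 (TMM, filterByExpr with a minimum count of 10, quasi-likelihood F test, Benjamini-Hochberg adjusted p under 0.05) with group as the only term. Isoforms, cassette exons, first and last exons and the coding share were tested over all genes with diffSpliceDGE and called when the adjusted p was under 0.05 and the share moved by 10 percentage points or more. Exon events needed at least 10 counts in 4 libraries and at least 10 counts of each form. Exon events used the F test over both forms. This p was chosen after the p of 1 form alone had been run and its calls seen, because that p differs between the more and the less frequent form; counts of calls under both are given. Single values were compared by exact two-sided permutation. Ratios of summed counts have exact 95% intervals. Intervals, and the limit of 3 counts for a count of 0, cover counting error only, since amplified cDNA is not made of independent molecules. Transcripts share most of their sequence, so a count on one rests on the authors' assignment of reads.

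The members and lists were chosen with earlier results of these data known. The rule for names took all members, their called isoforms and the 2 isoforms with most counts, the called exons and the one with the most counts on its less frequent form, and the called genes or exons of the lists; other features were named after their values were seen. A gene of one list is not reported here. Where the replicate numbers of the groups were compared, the correlation of the deviations of libraries with the same number was between -0.0328 and 0.00889, so the numbers were not treated as pairs.

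Alternatives were DESeq2 1.42.0, its size factors in edgeR, limma-voom and limma-trend (limma 3.58.1, log2 of CPM plus 1 or plus 0.5), other filters (none, or a mean of 50 counts), limma's diffSplice, other minimum changes, a replicate block, and leaving out each library. Leaving out transcripts at 0 in some libraries was added after the data were seen. The tests were tried on simulated counts. R 4.3.3 and Python 3.11.15 (numpy 2.4.6, pandas 2.3.3, scipy 1.17.1, matplotlib 3.10.9) were used.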

Additional observations from a re-analysis of the deposited data

Results flagged for a closer look

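A library was set apart when its gap to the nearest library of its group exceeded Dixon's 95% limit as a part of the group's range. Chance sets apart about 1 in 20 groups, and 10 of the 86 groups examined were, many of them on few counts or on the same transcript. For gene levels these were TIA1 in shPTBP1 replicate 1 at 47.5 CPM, MBNL3 in shSCR replicate 3 at 9.34 CPM and MBNL2 in shPTBP1 replicate 2 at 0.661 CPM, which is its only count.

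MBNL1 gave 5 of them, all in replicate 2 of either group, where MBNL1-222 was counted. Its own first exon stood at 24.9% in shPTBP1 replicate 2 and 31% in shSCR replicate 2, the coding share at 73.9% and 66.9%, and the main first exon at 66.9% in shSCR replicate 2. The others were the CELF1 last exon of CELF1-222 at 2.27% in shPTBP1 replicate 4 and the most upstream CELF2 first exon at 27.9% in shPTBP1 replicate 3.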

How the results depend on the processing

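No member was called in any of the gene, isoform, cassette exon, terminal exon and coding share tests under any alternative run. The CELF2 log2 fold change, -0.01, changed sign with no filter (0.00) and ran from -0.11 to 0.05 when 1 library was left out, and that of CELF1 became -0.18 without transcripts at 0 in some libraries. QKI ran from -1.60 to -0.65 with 1 library left out and from -2.40 to -0.34 under the other settings. With the replicate block, 0 members were called in each test, as without it. In the gene test 4 of the 6 members had an unadjusted p under 0.05 with the block, against 1 without it. The share of all genes under that limit was 19.2% without the block and was not counted with it. The 4 therefore cannot be read as a result about the members. At an adjusted p under 0.05, 4.25% of all genes were called with the block. The labels give the groups only a shared number and do not say how the replicates were made, so no pairing was assumed.

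Counts over all features moved more than 1.5 times at several settings. Genes called were 421, and 184 (without shPTBP1 replicate 3) to 358 (without shPTBP1 replicate 1) with 1 library left out. Isoforms called were 61 with diffSpliceDGE, 155 with limma's diffSplice, 99 with no minimum change and 28 at 20 points. Cassette exons called were 93, 159 with no minimum change, 37 at 20 points and 31 with the p of 1 form alone. Terminal exons called were 47, 91 with no minimum change, 23 at 20 points and 12 with the p of 1 form alone. Coding shares called were 16, 30 with no minimum change, 6 at 20 points, 10 to 17 with 1 library left out and 2 with the p of 1 form alone. Depth limits the lower members: 4 of the 10 had at most 53 counts over all libraries.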
